A study of Rattus norvegicus with 9 samples.

Results

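The genes described here encode the nuclear part of the machinery of oxidative phosphorylation in the rat frontal cortex. They were taken from the deposited gene table by type and symbol: genes typed as mRNA whose symbol begins with Nduf (complex I), is Sdha, Sdhb, Sdhc or Sdhd (complex II), or begins with Uqcr (complex III), Cox4 to Cox8 (complex IV) or Atp5 (complex V), with at least 90 reads summed over the 9 rats. This gave 86 genes of the 92 matching mRNA symbols, among 23422 mRNA genes and 37209 genes in all. The 86 comprised 37 complex I subunits, 7 complex I assembly factors (symbols beginning with Ndufaf), 4 complex II genes, 8 complex III genes, 13 complex IV genes and 17 complex V genes. Complexes were assigned by symbol alone, so the 37 include Ndufa4, a subunit of complex IV despite its name, and its relative Ndufa4l2. Likewise the 17 include Atp5sl and Atp5s, which the RefSeq gene table lists as Dmac2, an assembly factor of complex I, and Dmac2l. Just inside the limit were Cox7a2l2 with 119 reads, Cox6a2 with 133 and Ndufa4l2 with 171, and just outside it were Ndufa1 with 65, Cox6b2 with 60 and Cox7b2 with 26.

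Frontal cortex RNA came from 9 male Wistar rats aged 14 weeks, 3 in each of 3 groups, sequenced after rRNA depletion. The Control rats (A1, A2 and A6) had been left undisturbed with their mothers until weaning. Rats of the MS group (B3, B4 and B6) were pups whose mothers were moved to another cage for 4 h a day from postnatal day (PND) 1 to PND 21. Those of the MS+EA group (C3, C10 and C16) went through the same separation and were then given electroacupuncture at the points GV20 and GV29 every other day from PND 61 to PND 81 under anaesthesia, which the other groups received without needling. No sequenced group received electroacupuncture without separation or sham needling, so in MS+EA rats a contribution of the treatment, of the needling itself and of the earlier separation cannot be told apart by comparison with Control. The labels do not say which rats shared a litter, and separation was applied to whole litters.

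In oxidative phosphorylation, electrons from NADH enter the inner mitochondrial membrane at complex I and those from succinate at complex II, pass through complex III and cytochrome c to oxygen at complex IV, and the proton gradient that is built drives ATP synthesis by complex V. Complexes I, III, IV and V combine subunits made in the cytosol from nuclear genes with a few core subunits made inside the mitochondrion from mitochondrial DNA, whereas complex II is wholly nuclear. Neurons spend much of their ATP on ion pumping and synaptic transmission and depend on this pathway, and the frontal cortex is rich in mitochondria.

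The total of counted reads was between 16106381 and 19007907 in the Control and MS rats and between 12479905 and 14913736 in the MS+EA rats. Genes typed as lncRNA took 0.798% to 0.964% of the reads in Control and MS rats and 0.976% to 1.13% in MS+EA rats. Expression is given as CPM (edgeR's scaled read counts, with library sizes adjusted by TMM), and differences were tested in 1 quasi-likelihood model of all 9 rats with edgeR, with Benjamini-Hochberg adjustment over 16837 genes. Fold changes are on the log2 scale with the standard error (SE). CPM is not scaled to gene length here, so levels are compared between rats and not between genes. In whole tissue, fewer cells of a type and less RNA per cell cannot be told apart.

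Together the 86 genes took a steady share of the library, between 0.531% and 0.576% of the reads in each of the 9 rats. Reads behind a single gene ranged from 119 to 135839 over the 9 rats, with a median of 4492.5, so that precision differed widely among them. The highest rat stood under 1.5 times the lowest for 70 of the 86 genes, and the median of this ratio was 1.35. For 7 genes it was over 2. The coefficient of variation between rats of a group had a median of 7.86% and was under 10% for 60 genes. It was lowest for Cox4i1 (2.91%), a nuclear-encoded subunit of cytochrome c oxidase, and highest for Ndufa12 (82.9%), an accessory subunit of complex I.

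**Figure D1:**
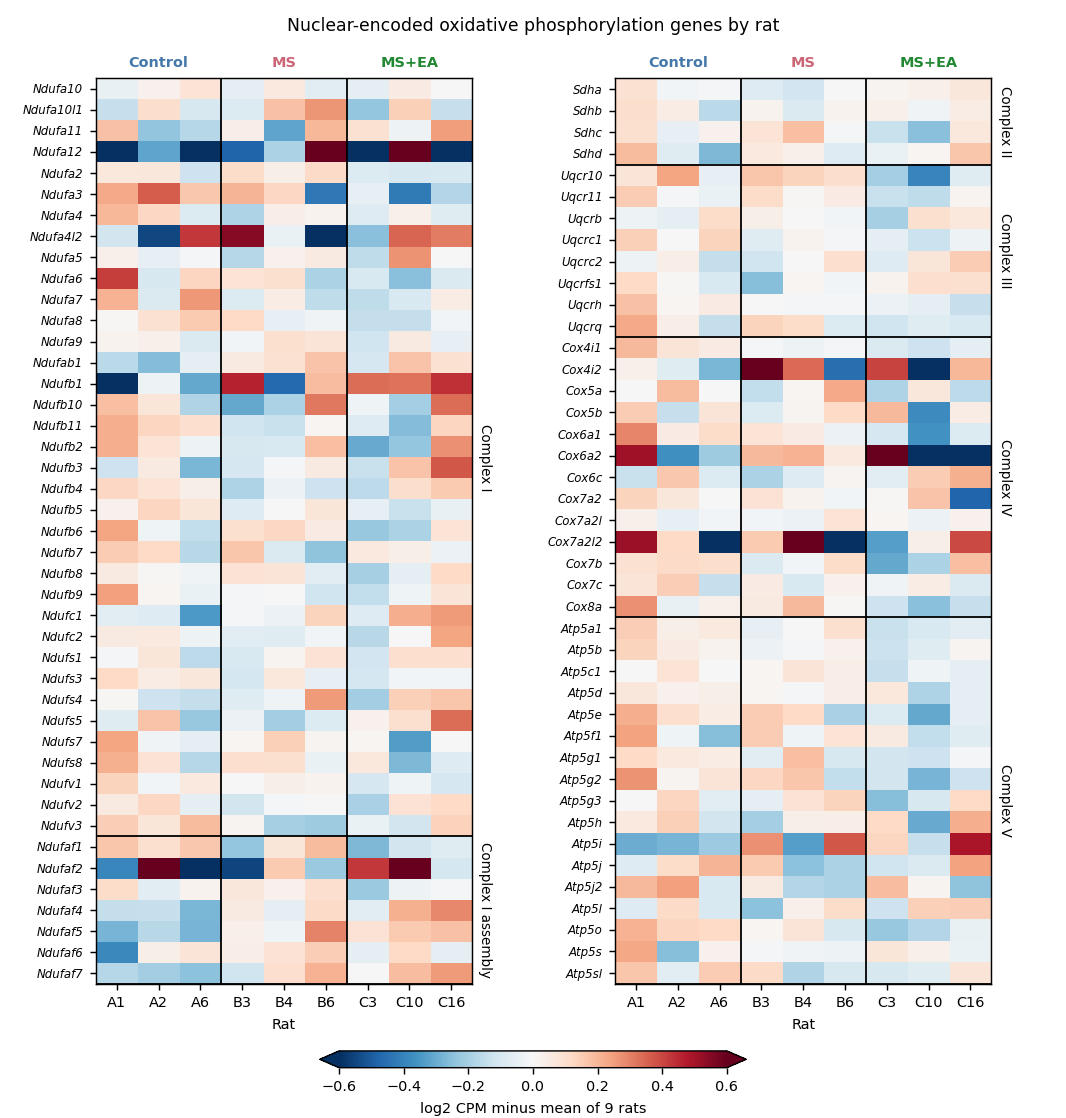
Each row is a gene, for 85 of the 86 genes grouped by complex, and each column 1 of the 9 rats, and colour gives log2 CPM minus the mean of the 9 rats, with values past 0.6 in either direction drawn in the end colours. Most rows are pale, and the dark cells lie mainly in genes with few reads (Cox6a2, Cox7a2l2, Ndufa4l2, Ndufaf2) and in Ndufa12, where only rats B6 and C10 are dark red.

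Maternal separation without treatment left no gene of the 86 past the adjusted threshold. Between MS and Control rats, 0 members passed an adjusted p under 0.05 with or without a fold change above 1.5, beside 0.0238% of all genes by either rule. At an unadjusted p under 0.05, 4 members were higher and 2 lower, 4.65% and 2.33% of them, beside 7.06% and 3.55% of all genes. MS and Control rats did not overlap for 5 members that were higher in MS and 6 that were lower, beside 10% and 7.53% of all genes. The median log2 fold change of the 86 was -0.03, and that of all genes was -0.0014. It was -0.0039 without rat A1 and -0.0647 without A6. The 95% interval of the difference lay within 1.5-fold in both directions for 76 of the 86 genes and within 1.2-fold for 28 of them. DESeq2 and limma-trend also called 0 members, beside 198 and 3 of all 16837 genes.

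The smallest p values of this comparison belonged to complex I genes. Ndufab1, the mitochondrial acyl carrier protein that is also a complex I subunit, was at 42.9, 40.1 and 46.0 CPM in Control rats, at 49.8, 51.2 and 54.1 in MS rats and at 44.7, 54.1 and 51.2 in MS+EA rats. Each MS rat was above each Control rat, and the MS+EA rats overlapped with both groups. The log2 fold change in MS against Control was 0.27 (SE 0.0893, adjusted p = 0.284). Ndufv3, an accessory subunit of the flavoprotein part, was at 23.8, 22.5 and 24.4 CPM in Control rats, 21.7, 18.6 and 18.5 in MS rats and 20.8, 19.8 and 23.6 in MS+EA rats. Every MS rat was below every Control rat (log2 fold change -0.27, SE 0.107, adjusted p = 0.396). The membrane-arm subunits Ndufb4 (log2 fold change -0.20) and Ndufb11 (-0.23) had the same separation of groups, with adjusted p values of 0.474 and 0.471.

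Electroacupuncture after separation also left no member past the adjusted threshold when set against separation alone. Between MS+EA and MS rats, 0 members passed with or without the fold limit, beside 0.0178% of all genes by either rule. At an unadjusted p under 0.05, 0 members were higher and 3 lower, beside 6.01% and 6.42% of all genes. The groups did not overlap for 3 members higher and 10 lower in MS+EA, 3.49% and 11.6% of them, beside 8.27% and 9.60% of all genes. The median log2 fold change of the 86 was -0.05, beside 0.0006 for all genes. It was -0.005 when libraries were scaled by total counts, and 0.0085 without rat C3. The 95% interval lay within 1.5-fold for 76 genes and within 1.2-fold for 24. DESeq2 and limma-trend called 0 members here too, beside 150 and 3 of all 16837 genes.

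The 3 members with an unadjusted p under 0.05 between MS+EA and MS were small subunits of complexes III and IV. Cox8a, the broadly expressed isoform of cytochrome c oxidase subunit VIII, was at 67.5, 74.4 and 65.4 CPM in MS rats and at 59.5, 54.5 and 59.0 in MS+EA rats, while Control rats had 78.4, 62.9 and 66.3. Each MS+EA rat was below each rat of the other groups. The log2 fold change against MS was -0.26 (SE 0.0918, adjusted p = 0.303). Uqcr10, a small subunit of the cytochrome bc1 complex, was at 12.7, 12.4 and 12.1 CPM in MS rats, 9.78, 8.58 and 10.7 in MS+EA rats and 11.9, 13.3 and 10.9 in Control rats. Again the MS+EA rats lay below all others (log2 fold change against MS -0.36, SE 0.133, adjusted p = 0.319). Cox6a1 was the remaining one and is described with complex IV. On the higher side, Ndufs5 had the smallest p (log2 fold change 0.26, SE 0.132, adjusted p = 0.435), and Sdha, Uqcrfs1 and Ndufs5 were the 3 members for which each MS+EA rat was above each MS rat. No member had MS rats outside both other groups with opposite directions, that is, above or below Control and then moved back past MS in MS+EA. The share of all genes by this rule was not computed, so nothing about these genes is read from it.

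The comparison of MS+EA with Control gave the larger differences, and it shares its samples with the comparisons above. Here 1 of the 86 members passed an adjusted p under 0.05 (1.16%), beside 5.40% of all genes, and 0 passed with a fold change above 1.5, beside 1.37%. At an unadjusted p under 0.05, 6 members were higher and 13 lower, 6.98% and 15.1% of them, beside 11.9% and 10.6% of all genes. The groups did not overlap for 5 members higher and 19 lower, 5.81% and 22.1%, beside 13.0% and 12.9% of all genes. Of the 86 log2 fold changes 30 were above 0 and 56 below, with a median of -0.07 beside 0.006 for all genes, of which 49.1% were below 0. The median of the 86 was -0.109 without rat C16 and -0.101 without A6. The 95% interval lay within 1.5-fold for 73 genes and within 1.2-fold for 14. By complex, the medians were -0.04 for complex I subunits, 0.33 for the complex I assembly factors, 0.02 for complex II, -0.14 for complex III, -0.07 for complex IV and -0.10 for complex V.

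**Figure D2:**
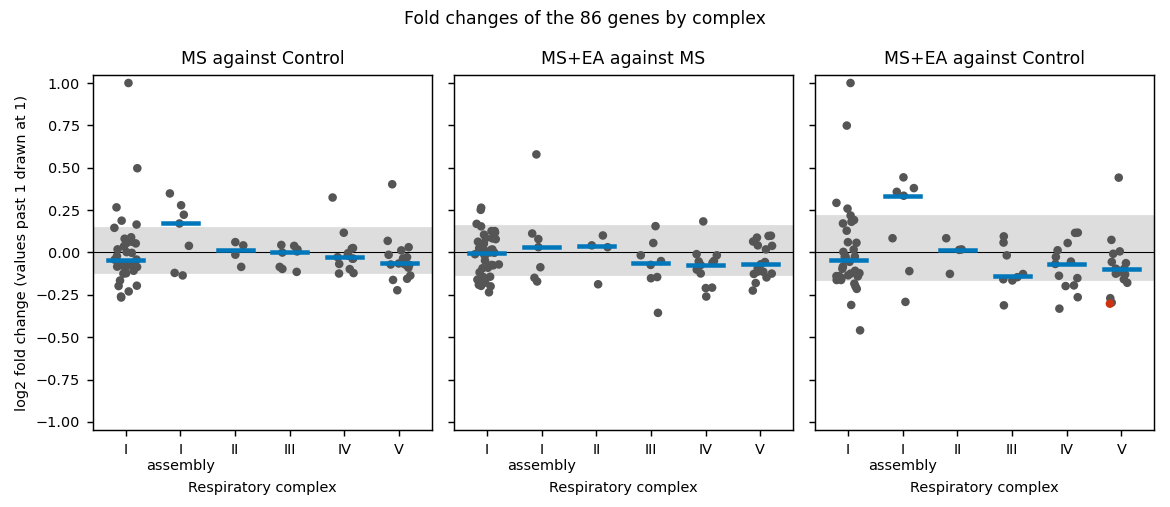
The log2 fold change of each of the 86 genes is a point, by complex and in 1 panel for each comparison, with blue bars for the medians of the complexes and a grey band from the lower to the upper quartile of all 16837 genes tested. Most points lie within or near the band, and the red point is Atp5o, the only gene with an adjusted p under 0.05. The 7 assembly factors have a median of 0.33 in MS+EA against Control, with a range from -0.29 to 0.44.

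The nuclear core subunits of complex I, some of which carry its flavin and iron-sulfur clusters, had no adjusted p under 0.05 in any comparison. Ndufs1, the largest of them, was between 184 and 219.8 CPM in the 9 rats, with all groups overlapping (MS+EA against Control, log2 fold change 0.06, 95% interval -0.12 to 0.24). Ndufv1, which binds NADH and the flavin, was at 80.98, 73.2 and 76.8 CPM in Control rats, 73.8, 75.7 and 75.04 in MS rats and 69.0, 72.5 and 68.9 in MS+EA rats. The MS+EA rats lay below both other groups by a narrow gap (log2 fold change against Control -0.13, adjusted p = 0.254). Ndufs3 was also lower in each MS+EA rat than in each Control rat (log2 fold change -0.12, adjusted p = 0.389). Of the 37 subunits, 1 was higher (Ndufb1) and 5 lower (Ndufv1, Ndufs3, Ndufa3, Ndufa8 and Ndufb5) in MS+EA without overlap with Control, beside 13.0% and 12.9% of all genes. Ndufb1, a small membrane-arm subunit, had 2.19, 4.15 and 3.42 CPM in Control rats, 5.83, 3.06 and 4.81 in MS rats and 5.34, 5.29 and 5.72 in MS+EA rats. Its log2 fold change of 0.75 (SE 0.273) against Control was the largest on the higher side after Ndufa12, with an adjusted p of 0.126.

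The assembly factors of complex I build the enzyme and are not part of it, and 3 of the 7 had Control rats below all separated rats. No other member did, so by this rule 3 of the 86 passed, a smaller share than the 5.28% of all genes. Ndufaf7, a methyltransferase of the mitochondrial matrix, was at 25.6, 24.9 and 24.2 CPM in Control rats, 26.5, 30.9 and 33.3 in MS rats and 28.8, 32.7 and 34.3 in MS+EA rats. Against Control it differed by 0.28 on the log2 scale in MS (SE 0.105, adjusted p = 0.36) and 0.36 in MS+EA (SE 0.106, adjusted p = 0.0671), and the separated groups overlapped with each other. Ndufaf5, which hydroxylates the core subunit Ndufs7, was at 9.74, 10.5 and 9.76 CPM in Control rats, 12.1, 11.6 and 14.6 in MS rats and 12.6, 13.2 and 13.4 in MS+EA rats. The log2 fold changes against Control were 0.35 in MS and 0.38 in MS+EA, with adjusted p values of 0.327 and 0.0994.

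Ndufaf4, which acts early in the assembly of the arm of complex I that lies in the matrix, was at 28.05, 28.1 and 25.6 CPM in Control rats, 32.1, 29.8 and 33.6 in MS rats and 29.6, 35.9 and 37.8 in MS+EA rats. The lowest of the 6 separated rats, C3 at 29.6, was again above the highest Control rat. The log2 fold change against Control was 0.22 in MS (adjusted p = 0.476) and 0.33 in MS+EA (adjusted p = 0.0799). Without rat C3, Ndufaf4 and Ndufaf7 passed in MS+EA against Control, with adjusted p values of 0.0286 and 0.0433. Since the Control rats are the same in both contrasts, the like values in MS and MS+EA are not 2 independent observations. Ndufaf1, another assembly factor, lay the other way: 28.7, 27.3 and 28.5 CPM in Control rats against 21.2, 23.7 and 24.2 in MS+EA rats, with MS at 21.8, 26.9 and 29.1 (log2 fold change of MS+EA against Control -0.29, adjusted p = 0.151). The remaining Ndufaf2, Ndufaf3 and Ndufaf6 overlapped between MS+EA and Control.

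Complex II, succinate dehydrogenase, had medians near 0, at 0.01 in MS against Control, 0.04 in MS+EA against MS and 0.02 in MS+EA against Control. Sdha, its flavoprotein and an enzyme of the citric acid cycle as well, was at 302, 279.5 and 282 CPM in Control rats, 269, 261 and 284 in MS rats and 287, 289 and 297 in MS+EA rats. The MS rats were lower than the MS+EA rats without overlap (log2 fold change of MS+EA against MS 0.10, SE 0.0614, adjusted p = 0.528), and Control rats overlapped with both. The iron-sulfur protein Sdhb and the membrane anchors Sdhc and Sdhd overlapped in all 3 comparisons. Sdhc had the largest value of the complex in size, a log2 fold change of -0.19 in MS+EA against MS (adjusted p = 0.413).

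In complex III, 6 of 8 genes had a log2 fold change below 0 in MS+EA against Control and 3 did not overlap, all lower: Uqcr10, Uqcrc1 and Uqcrh. Of all genes 49.1% were below 0 and 12.9% were lower without overlap. Uqcrh, the hinge protein that helps cytochrome c dock, was at 99.2, 88.5 and 90.8 CPM in Control rats, 87.9, 87.3 and 87.4 in MS rats and 85.6, 84.2 and 79.8 in MS+EA rats. The 3 groups followed one another without overlap, Control highest and MS+EA lowest, with steps of -0.09 and -0.07 on the log2 scale and adjusted p values of 0.689 and 0.692. MS+EA against Control was -0.16 (adjusted p = 0.184). Uqcrfs1, the Rieske iron-sulfur protein that takes part in electron transfer itself, differed in the other direction from MS, at 80.9, 97.4 and 95.5 CPM in MS rats and 98.1, 104 and 103 in MS+EA rats (log2 fold change 0.16, adjusted p = 0.46), and overlapped with Control.

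Complex IV held 3 genes that were lower in every MS+EA rat than in every Control rat and every MS rat: Cox4i1, Cox6a1 and Cox8a. By this rule 8 of the 86 members were lower, beside 5.89% of all genes. Cox6a1, the broadly expressed isoform of subunit VIa, was at 100.1, 84.5 and 88.0 CPM in Control rats, 86.5, 84.5 and 79.7 in MS rats and 76.1, 63.6 and 77.2 in MS+EA rats. The log2 fold change of MS+EA was -0.33 (SE 0.0902, adjusted p = 0.0521) against Control and -0.21 (SE 0.0903, adjusted p = 0.369) against MS. Cox4i1, the isoform of subunit IV found in most tissues, was at 211, 194 and 191 CPM in Control rats, 184, 180.4 and 183 in MS rats and 173, 169 and 177 in MS+EA rats. These 3 groups too did not overlap with one another, with log2 fold changes of -0.12 in MS against Control (adjusted p = 0.493), -0.07 in MS+EA against MS (adjusted p = 0.655) and -0.20 in MS+EA against Control (SE 0.061, adjusted p = 0.0764). Cox8a was -0.26 against Control (adjusted p = 0.11). With DESeq2, Cox6a1 and Cox4i1 passed in MS+EA against Control, with adjusted p values of 0.014 and 0.0319.

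The tissue-restricted isoforms of complex IV had few reads and showed no group pattern. Cox6a2, the heart and muscle isoform of subunit VIa, had between 0.536 and 1.67 CPM, and both extremes were MS+EA rats. Cox4i2, the oxygen-responsive isoform of subunit IV, had between 1.01 and 2.62 CPM with all groups overlapping. Cox7a2l, which links complexes III and IV into supercomplexes, was among the steadiest genes, with 157 to 172 CPM over the 9 rats and a log2 fold change of 0.01 in MS+EA against Control. Cox6c was higher in MS+EA rats than in MS rats on average (log2 fold change 0.18, adjusted p = 0.452), with overlap.

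Complex V, the ATP synthase, held the gene that changed. Atp5o encodes the oligomycin sensitivity conferring protein, which joins the catalytic head of the synthase to its outer stalk. It was at 72.1, 68.1 and 67.7 CPM in Control rats, 62.8, 65.7 and 58.3 in MS rats and 53.1, 55.1 and 60.5 in MS+EA rats. Control rats lay above all 6 others, and only MS rat B6 and MS+EA rat C16 made the separated groups overlap. Atp5o fell in MS+EA against Control by 0.30 on the log2 scale (SE 0.0773, 95% interval -0.47 to -0.13, adjusted p = 0.0421). The differences of MS from Control and of MS+EA from MS were each -0.15, with adjusted p values of 0.498 and 0.453. The call was near the threshold: its adjusted p was between 0.0533 and 0.163 when any 1 rat other than C16 was left out, 0.0647 with only the 6 rats compared and 0.0578 with total-count scaling, under which Ndufaf7 passed instead, on the higher side (adjusted p = 0.0459).

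Of the 17 complex V genes 14 had a log2 fold change below 0 in MS+EA against Control, and 7 of them did not overlap: Atp5o, the catalytic-head subunits Atp5a1 (alpha), Atp5b (beta), Atp5c1 (gamma) and Atp5e (epsilon), and Atp5g1 and Atp5g2, which encode the same mature c subunit of the membrane ring. Of all genes 49.1% were below 0 and 12.9% were lower without overlap. Without Atp5sl, which was at -0.12, 13 of 16 were below 0 and the same 7 did not overlap. Atp5a1 was at 494, 456 and 463 CPM in Control rats, 430.0, 446 and 475 in MS rats and 406, 417 and 426 in MS+EA rats, so that the MS+EA rats were the 3 lowest. The log2 fold change was -0.18 (SE 0.0634, adjusted p = 0.116) against Control and -0.11 (adjusted p = 0.481) against MS. Atp5b, the member with the most reads, was at 1039.5, 979 and 961 CPM in Control rats, 926, 940.3 and 966 in MS rats and 867, 899.6 and 956 in MS+EA rats (log2 fold change -0.13, adjusted p = 0.253). The remaining head subunit, Atp5d (delta), overlapped, at -0.10. Atp5i, a small subunit of the dimer interface with 523 reads in all, was the 1 gene higher without overlap (log2 fold change 0.44, SE 0.25, adjusted p = 0.314).

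Taken per rat, the median deviation of the 17 complex V genes from their 9-rat means was 0.0242 to 0.134 on the log2 scale in Control rats, 0.00293 to 0.028 in MS rats and -0.109 to -0.0411 in MS+EA rats. For the 13 complex IV genes it was -0.0026 to 0.128, 0.0167 to 0.0459 and -0.125 to -0.0569. In both complexes each MS+EA rat was below each rat of the other groups by this median, but not by the summed CPM, in which the genes with most reads weigh most. The sum for complex V was 1987 to 2122 in Control rats, 1909 to 1994 in MS rats and 1801 to 1943 in MS+EA rats, and that for complex IV was 747 to 796, 721 to 755 and 693 to 745. Rat C16, the highest of the MS+EA rats in both sums, overlapped with the MS rats. As a share of counted reads, complex V took 0.196% in C16 and 0.19% to 0.194% in MS rats. For the 37 complex I subunits the ranges of the 3 groups overlapped, at -0.0561 to 0.0633, -0.0333 to 0.0218 and -0.1 to 0.0795. For the 7 assembly factors they were -0.246 to -0.0638 in Control, 0.0285 to 0.144 in MS and -0.0543 to 0.156 in MS+EA rats. Rat C3 was thus just above Control rat A2. In summed CPM of the 7, C3 at 125.9 lay within the Control range of 125.4 to 128.1. These are descriptions of medians over genes chosen by symbol, without a test.

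**Figure D3:**
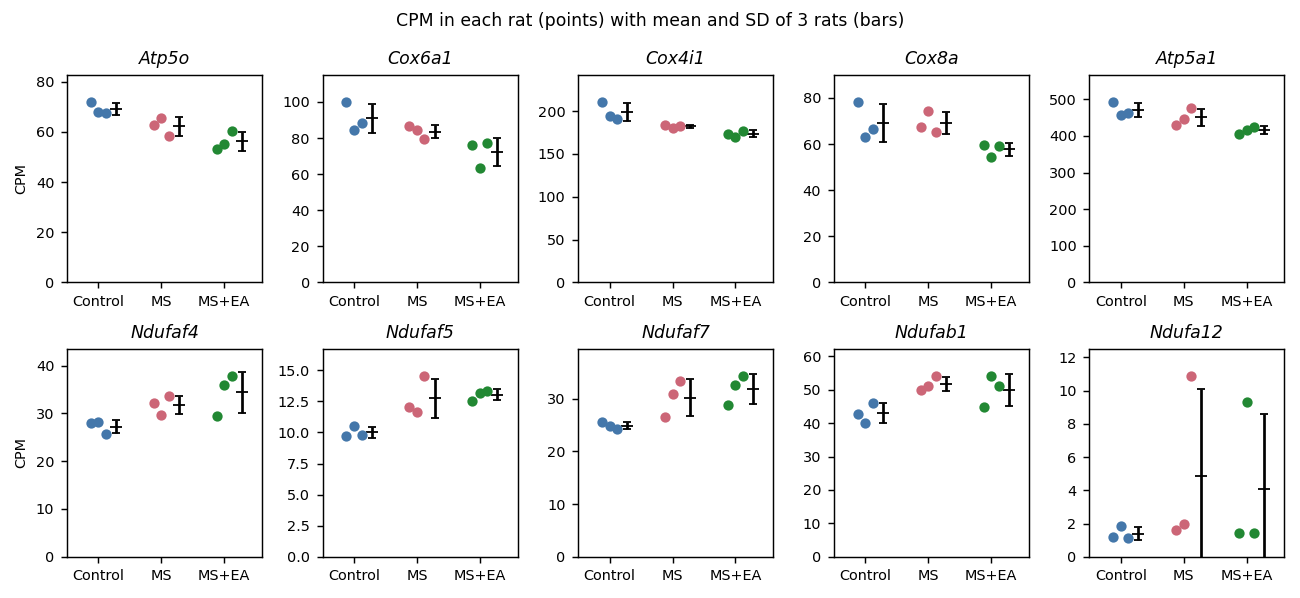
CPM of 10 of the genes in each rat (coloured points), with the mean and SD of the 3 rats of a group in black at the right of the points and every axis starting at 0, where the SD bars of Ndufa12 are cut. Atp5o, Cox6a1, Cox4i1, Cox8a and Atp5a1 are lowest in MS+EA rats, the assembly factors Ndufaf4, Ndufaf5 and Ndufaf7 are lowest in Control rats, and Ndufa12 is high in 1 MS rat (10.9 CPM) and 1 MS+EA rat (9.31 CPM) only.

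Ndufa12 stood apart from the other 85 genes by its distribution over rats. It had 1.18, 1.83 and 1.12 CPM in Control rats, 1.63, 2.001 and 10.9 in MS rats and 1.46, 9.31 and 1.43 in MS+EA rats. In reads, B6 had 181 and C10 had 139, and the other 7 rats had 18 to 32. The 2 high rats belonged to different groups, and no group was separated from another. The log2 fold change of 1.81 in MS against Control (SE 0.808, adjusted p = 0.457) came down to 0.40 without B6, and that of 1.58 in MS+EA against Control to 0.07 without C10. Among all 16837 genes, Ndufa12 was the 1 gene with at least 30 reads in both B6 and C10 and more than 3 times the CPM of every other rat in both. This rule was set after the values of Ndufa12 were seen, so it describes the pattern and does not test it. RefSeq lists a pseudogene copy, Ndufa12-ps1, and how reads that fit both were counted is not given in the sources used here.

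Copies of these genes elsewhere in the genome may bear on some of the values, which was not tested. In the GRCr8 RefSeq gene table a search by symbol found numbered pseudogene or like copies for 42 of the 86 genes and none for 44. Copies named otherwise would be missed, and Ndufa10l1, itself among the 86, was not counted as a copy of Ndufa10. Among the genes named above, Cox8a, Atp5a1, Ndufaf5 and Uqcrh have none, while Atp5o, Cox4i1 and Ndufaf7 have 1 each, Cox6a1 has 2 and Ndufaf4 has 5. Of the other complex V genes lower without overlap, Atp5e has 1, Atp5b 2, Atp5c1 and Atp5g1 4 each and Atp5g2 6. Uqcr10 has 1, Ndufab1 and Ndufv3 have 2 each, Ndufb1 has 3 and Ndufb4 has 11. The values of genes with copies are uncertain to the extent that reads were shared. Uqcrb, a subunit of complex III with 4 copies, had 1392 reads as a gene. Atp5f1, the b subunit of the outer stalk, had only 386 reads and 3 copies, and Cox7c had 364 reads and 4 copies. In all, 9 members had under 600 reads, 4 of them with copies.

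Other genes of the pathway, outside the symbols used here, gave the following counts. All 13 mitochondrially encoded chain subunits were tested. In MS against Control all 13 log2 fold changes were above 0, with a median of 0.21, and 6 had an unadjusted p under 0.05, beside 7.06% of all genes on the higher side. By adjusted p 1 rose, ATP8, a small subunit of the synthase, beside 0.0238% of all genes past this threshold. ATP8 was at 122, 95.2 and 132 CPM in Control rats, 316, 289 and 326 in MS rats and 251, 343 and 291 in MS+EA rats (log2 fold change of MS 1.41, adjusted p = 0.000559). In MS+EA against Control 5 rose (ND4, ND4L, ND6, ATP6 and ATP8) and ND1 fell by 0.47 on the log2 scale (adjusted p = 0.0217), with a median of 0.11 over the 13. Of all genes 5.40% passed in this comparison. In MS+EA against MS 9 of the 13 were below 0, with a median of -0.10, and 0 passed by adjusted p. At an unadjusted p under 0.05, 1 was higher there and 4 lower, beside 6.01% and 6.42% of all genes. Several of these genes overlap on the mitochondrial genome, so that reads of neighbours may be shared. Their summed CPM was 30233 to 31500 in Control, 32833 to 38220 in MS and 28184 to 30775 in MS+EA rats.

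Among 9 tested nuclear chain genes outside the symbols, 1 passed in MS+EA against Control, on the lower side. In this comparison 5.40% of all genes passed, counted over both directions, and the counts of the lists that follow are read beside that share. This was Cyc1, the cytochrome c1 subunit of complex III, at 42.7, 41.3 and 39.6 CPM in Control, 38.4, 41.2 and 33.8 in MS and 32.3, 30.8 and 33.0 in MS+EA rats (log2 fold change -0.36, adjusted p = 0.0385). Of 29 tested assembly factors of the other complexes and of complex I, 1 rose, Cox16, which acts in the assembly of complex IV (log2 fold change 0.40, adjusted p = 0.0221), and 0 fell. The median of the 29 was 0.01, beside 0.33 for the 7 Ndufaf genes, whose log2 fold changes ran from -0.29 to 0.44. At an unadjusted p under 0.05, 2 were higher and 5 lower, beside 11.9% and 10.6% of all genes. Of 12 transcription factors and coactivators known for nuclear chain genes 1 rose, Gabpa, the DNA-binding part of nuclear respiratory factor 2, with 25.7, 28.5 and 28.1 CPM in Control, 30.5, 33.3 and 32.5 in MS and 35.0, 33.8 and 36.2 in MS+EA rats (log2 fold change 0.35, adjusted p = 0.0363). Nrf1 was at 0.14 (adjusted p = 0.437) and the coactivator Ppargc1a at 0.20 (adjusted p = 0.211). In these lists 0 genes passed in MS against Control or in MS+EA against MS.

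Of 15 tested citric acid cycle genes 2 rose in MS+EA against Control, Idh3a (log2 fold change 0.33, adjusted p = 0.0415) and Dld (0.50, adjusted p = 0.00876), and 0 fell. Of 16 glycolytic genes 0 rose and 3 fell, Gpi (-0.25, adjusted p = 0.0479), Aldoa (-0.33, adjusted p = 0.0418) and Gapdh (-0.34, adjusted p = 0.0208), with a list median of -0.16. The medians of both lists in MS against Control were 0.00 and -0.08, and 0 of their genes passed there.

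**Figure D4:**
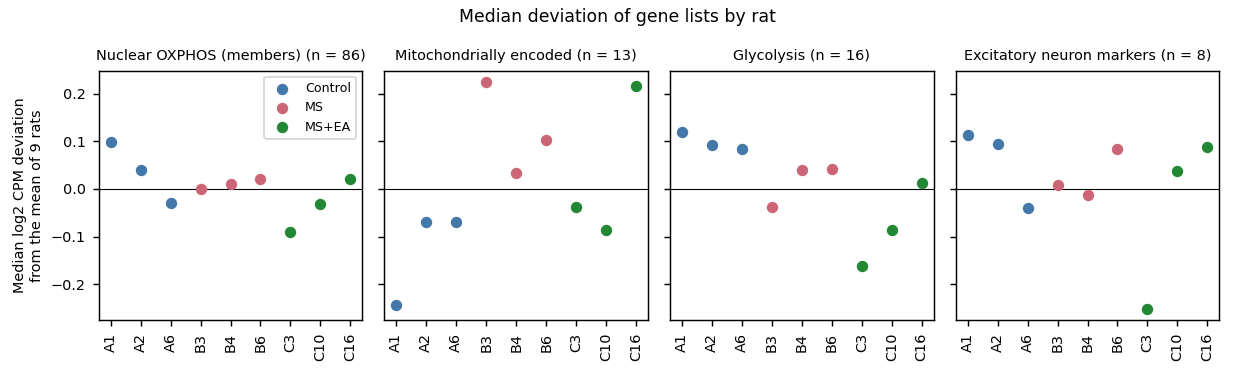
The median deviation of log2 CPM from the 9-rat mean is plotted for each rat over the 86 nuclear genes, 13 mitochondrially encoded chain genes, 16 glycolytic genes and 8 excitatory neuron markers. The nuclear genes range from -0.0905 in rat C3 to 0.0992 in rat A1, the mitochondrially encoded genes are lowest in A1, and C3 is the lowest rat for glycolysis and for the neuron markers.

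Markers of cell types were read beside these values. All 8 markers of cortical excitatory neurons were detected, and their summed CPM was 2150 to 2255 in Control rats, 2012 to 2139 in MS rats and 1753 to 1967 in MS+EA rats, with MS+EA below both other groups. This sum is mostly Slc17a7. The median deviation of the 8 from their 9-rat means overlapped between groups, at -0.0402 to 0.113 in Control, -0.0123 to 0.0838 in MS and -0.251 to 0.0882 in MS+EA rats. Slc17a7, the vesicular glutamate transporter that defines these neurons, fell in MS+EA against Control by 0.30 on the log2 scale (adjusted p = 0.0207). Over the 8 markers 0 rose and 2 fell, 3 had a log2 fold change above 0, up to 0.37, and their median was -0.08. The summed CPM of 5 oligodendrocyte markers ranged from 1819 to 2806 in Control, 1604 to 2460 in MS and 1783 to 3539 in MS+EA rats, and that of 4 endothelial markers from 138 to 169, 171 to 240 and 155 to 198. Of 6 interneuron, 5 astrocyte, 5 microglia, 5 oligodendrocyte, 4 endothelial and 6 striatal and hypothalamic neuron markers 0 passed an adjusted p under 0.05 in any of the 3 comparisons. Log2 fold changes of the 6 striatal and hypothalamic markers still ran from -0.32 to 4.06 in MS against Control. They ran from -6.69 to 0.56 in MS+EA against MS and from -3.43 to 0.29 in MS+EA against Control. Of 3 choroid plexus markers 2 were tested, and their sum reached 10.7 CPM in MS rats and at most 2.56 in Control and 2.01 in MS+EA rats. The part of these differences, and of the lower totals and higher lncRNA share of the MS+EA rats, in the values of the 86 genes was not tested.

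Promoter sequence is a feature that the choice by symbol did not use. RefSeq promoters of the GRCr8 assembly, 300 bases from 250 before to 50 after the start of a gene, were found for 74 of the 86 genes, 1 each, and were searched on both strands for 6 short motifs, none of which contains another. CGCANGCG, the core of the site of nuclear respiratory factor 1, was in 33.8% of the member promoters, in 14.9% of the 13040 promoters of tested genes and in 7.6% of all 33469 promoters. CCGGAAG, an ETS site of the kind bound by Gabpa, was in 25.7%, 14.9% and 8.75%. AAGATGG (YY1) was in 23.0%, 7.78% and 7.01%, and AAGGTCA, a core site of estrogen-related receptors, in 13.5%, 3.17% and 4.61%. GGGCGG (SP family) was in 43.2%, 58.1% and 33.1%, and CCAAT (NF-Y) in 31.1%, 36.6% and 37.5%. Each of the first 4 motifs was thus in a larger share of member promoters than of either background, and the last 2 were not in a larger share than in tested genes. Median GC content was 57.2%, 60.0% and 51.7%. These shares describe letters and carry no test.

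**Figure D5:**
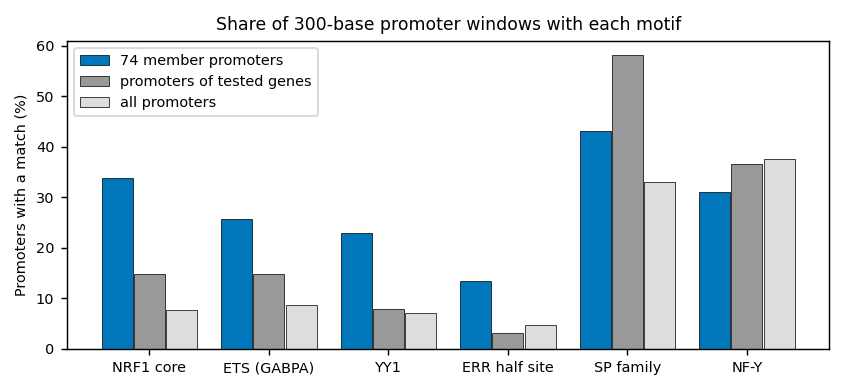
Bars give the percentage of 300-base promoter windows with at least 1 match on either strand, for the 74 member promoters, the promoters of tested genes and all promoters. The member bar is the tallest for NRF1 core (33.8%), ETS (25.7%), YY1 (23.0%) and the estrogen-related receptor site labelled ERR (13.5%), and the tested-gene bar for the SP family (58.1%).

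The promoters of 4 members whose MS+EA and Control rats did not overlap are shown, chosen after their values were seen, 2 lower in MS+EA (Atp5o and Cox4i1) and 2 higher (Ndufaf4 and Ndufaf7), to let the matches be read in place. The promoter of Cox6a1 was not analysed here. Letters run 5′ to 3′ on the strand of the gene, and capitals mark matches to the 6 motifs on either strand, which did not overlap one another. Atp5o, listed as Atp5po in RefSeq, lies on the minus strand at chr11:44657434-44657733, Cox4i1 on the plus strand at chr19:65630133-65630432, Ndufaf4 on the plus strand at chr5:43401545-43401844 and Ndufaf7 on the minus strand at chr6:21871916-21872215.
Atp5o: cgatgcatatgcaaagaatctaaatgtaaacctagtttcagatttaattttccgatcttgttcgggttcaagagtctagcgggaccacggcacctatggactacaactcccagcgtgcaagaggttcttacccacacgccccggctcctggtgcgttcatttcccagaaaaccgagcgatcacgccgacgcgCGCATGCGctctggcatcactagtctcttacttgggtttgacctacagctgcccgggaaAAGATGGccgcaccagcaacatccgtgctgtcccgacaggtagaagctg
Cox4i1: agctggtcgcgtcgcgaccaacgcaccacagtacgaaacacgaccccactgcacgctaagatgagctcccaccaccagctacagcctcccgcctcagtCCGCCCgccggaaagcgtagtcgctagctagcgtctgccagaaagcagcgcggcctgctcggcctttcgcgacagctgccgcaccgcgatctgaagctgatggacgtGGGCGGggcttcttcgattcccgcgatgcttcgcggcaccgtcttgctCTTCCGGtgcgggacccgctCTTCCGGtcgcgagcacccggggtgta
Ndufaf4: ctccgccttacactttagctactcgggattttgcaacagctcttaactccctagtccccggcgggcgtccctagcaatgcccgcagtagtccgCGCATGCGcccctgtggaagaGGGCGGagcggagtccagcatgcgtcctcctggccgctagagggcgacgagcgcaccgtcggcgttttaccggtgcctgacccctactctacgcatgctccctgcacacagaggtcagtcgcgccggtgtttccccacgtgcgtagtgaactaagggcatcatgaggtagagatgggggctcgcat
Ndufaf7: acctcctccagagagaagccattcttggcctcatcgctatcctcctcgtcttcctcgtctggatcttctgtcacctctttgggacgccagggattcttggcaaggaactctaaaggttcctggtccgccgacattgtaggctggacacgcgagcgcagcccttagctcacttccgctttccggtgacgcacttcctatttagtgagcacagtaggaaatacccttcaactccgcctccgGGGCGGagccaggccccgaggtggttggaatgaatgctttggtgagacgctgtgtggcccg

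Atp5o had 1 NRF1 core and 1 YY1 match, the latter from position 252 of the window, just past the start. Cox4i1 had 2 ETS matches, both past the start from positions 254 and 274, and 2 SP matches. Ndufaf4 had 1 NRF1 core match from position 94 and 1 SP match, and Ndufaf7 had 1 SP match. Of the 11 member promoters among the 13 genes with a lower value at an unadjusted p under 0.05 in MS+EA against Control, 5 had an ETS match and 4 an NRF1 core, and of the 6 with a higher value 0 had an ETS match and 3 an NRF1 core. With so few promoters these counts are given as a description, and a match is not evidence of binding.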

How the data were processed

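Total RNA of the frontal cortex of 9 rats, 3 each in the Control, MS and MS+EA groups of the labels, had been rRNA-depleted and sequenced on a HiSeq X instrument. The authors filtered reads with FastQC and mapped them with HISAT2 (version 2.0.4 per the submitters' processing notes) to Rnor_6.0, and the deposited values are whole-number read counts per gene without normalization. The counting program, its strand setting and its treatment of reads with several locations are not given in the sources used here. The rats of a group are separate animals, and p-values measure the spread between them. An exact permutation of 3 rats against 3 cannot give a two-sided p below 0.1.

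Counts were analysed with edgeR 4.0.16 in R 4.3.3: TMM scaling, filterByExpr (minimum count 10), a quasi-likelihood model with 1 mean per group over all 9 rats, and Benjamini-Hochberg adjustment over 16837 genes. All 86 members passed the filter. The biological coefficient of variation was 12.7%. SEs were derived from the F statistic (log2 fold change over its root). The scripts were tested on simulated data. No library pair was identical.

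Alternatives were DESeq2 1.42.0, limma-trend (limma 3.58.1, prior count 3), RLE or total-count scaling, at least 1 count in any rat, at least 10 counts in every rat, the 6 rats compared, and each rat left out. The members, lists, motifs and tests were chosen with earlier results of these data known. Genes were named by a rule: members past the threshold or, in a direction without any, the 4 with the smallest p, isoform groups, core subunits, those with the highest and lowest mean CPM, those whose MS rats lay outside both other groups in opposite directions, and those at the read limit, 46 members in all. Members with groups that do not overlap, with low counts or with standout rats, and genes of the other lists, were named after their values were seen. RefSeq tables were of GRCr8, a later build than the authors', and all 86 symbols matched, 17 of them as older symbols. They were used for names, copies and promoters. Per-gene positions in Rnor_6.0 were not used here. Plots used Python 3.11.15 and matplotlib 3.10.9. A single member is counted among the 86 and not reported here by itself.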

Additional observations from a re-analysis of the deposited data

Results flagged for a closer look

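Some matching symbols are typed otherwise than mRNA in the deposited table and so stayed out of the 86 genes, yet carried reads. Uqcrb-ps1, typed ncRNA, had 2783 reads over the 9 rats (388, 309 and 309 in Control, 296, 301 and 287 in MS, 261, 319 and 313 in MS+EA), which is more than the 1392 reads of Uqcrb itself. Cox6b1, the symbol of subunit VIb of cytochrome c oxidase, is typed ncRNA there and had 427 reads (49, 46 and 63 in Control, 57, 51 and 50 in MS, 45, 23 and 43 in MS+EA). The GRCr8 RefSeq table gives the name Cox6b1 also as an older name of a pseudogene, Cox6b1-ps1, and which locus the reads came from was not tested. Both were above the 3 reads taken as the detection floor in every rat. Ndufa13, typed ncRNA as well, had 7 reads in all and was not.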

How the results depend on the processing

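Leaving out each rat, the filters, the scalings and the tools left 0 members past both limits in every comparison, and 0 past the adjusted p alone in MS against Control and in MS+EA against MS. In MS+EA against Control the number of lower members was 1 as reported, 2 with RLE scaling (Atp5o and Cox6a1), 2 with at least 1 count in any rat, 4 with DESeq2 (Atp5o, Cox6a1, Cox4i1 and Atp5a1), 0 with total counts, 0 with the 6 rats compared and 0 to 1 with each rat left out. It was 0 without any single rat other than C16. The number of higher members was 0 as reported, 1 with total counts and 1 with DESeq2 (Ndufaf7 both times) and 0 to 2 with each rat left out, with 2 only without C3. Among all 16837 genes, both directions together, 910 passed as reported, 905 with RLE scaling, 909 with total counts and 1557 with DESeq2. With at least 1 count in any rat 1451 of 25954 genes passed, with the 6 rats compared 659 of 16332. The number was 112 without A1 and 951 without C3, the lowest and highest with a rat left out. The median log2 fold change of the 86 genes in MS+EA against MS was -0.00496 with total counts and -0.0619 to 0.0085 with each rat left out, and the other medians kept their sign in all 16 alternatives. Of 2202 values of the 46 named members under the alternatives 107 had the opposite sign to the value reported, and 0 of these belonged to a call. Total-count scaling moved the median of all genes to 0.0432 in MS+EA against MS. No paired analysis was possible because the groups compared share fewer than 2 replicate numbers (6 in A6 and B6, 3 in B3 and C3, and none between Control and MS+EA), and the labels tie no number to a litter or day. The cause of these changes was not tested. In MS against Control the 95% intervals of 10 of the 86 reached past 1.5-fold. Cox7a2l2 with 119 reads was among them, but so was Ndufaf5 with 1693, while Atp5f1 with 386 and Cox7c with 364 were not. The part of depth in these widths was not tested.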
